A study of Arabidopsis thaliana with 9 samples.

Results

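The comparison described here sets roots of gibberellin-deficient Arabidopsis thaliana seedlings labelled as overexpressing SCL3 against roots of the same gibberellin-deficient mutant without it. Its members were taken by title: the 3 arrays titled ga1-3 SCL3OE, called SCL3OE below, and the 3 titled ga1-3, 6 of the 9 arrays of the study. The other 3 arrays, titled ga1-3 scl3-1 and carrying the scl3-1 allele, entered only the estimate of the spread. All plants, controls included, carried the ga1 mutation, so no group had normal gibberellin synthesis and nothing here describes SCL3 overexpression in the wild type. Whole roots were taken 7 days after germination from seedlings on MS medium at 22 °C under 16 h of light and 8 h of dark, with no hormone treatment named in the labels. The promoter that drives SCL3, the number of independent lines and the pooling of seedlings are not given in the sources used here. The labels name replicates without saying that they came from separate cultures, so p-values measure the spread between these samples, which may be technical.

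Gibberellins are growth hormones that act by removing DELLA proteins, nuclear repressors of the GRAS family. The hormone binds GID1 receptors, the complex binds a DELLA, and an F-box protein such as SLY1 marks the DELLA for degradation. The enzyme made from GA1, a copalyl diphosphate synthase, opens the gibberellin pathway, so a ga1 mutant accumulates DELLAs and stays dwarfed. SCL3 is a GRAS protein without a DELLA domain that is known to counter DELLA action and to act in the root endodermis, the innermost layer of the ground tissue.

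Each value is an Affymetrix MAS5 signal of 1 ATH1 probe set on a linear scale, and each change is a difference of mean log2 signal, SCL3OE minus ga1-3, with its standard error (SE). A probe set was kept if 3 or more of the 9 arrays reached the 40th percentile of the same array, which averaged a signal of 105.9. Such a probe set was called when limma gave an adjusted p under 0.05. Median signals were 190 to 201 on the ga1-3 arrays and 183 to 185 on the SCL3OE arrays, while the 99th percentile was 5846 to 6649 against 8374 to 9087. Over the kept probe sets, whose values are not independent, arrays correlated at 0.978 to 0.987 within ga1-3, at 0.989 to 0.990 within SCL3OE and at 0.929 to 0.941 between them. No named probe set measured SCL3 or GA1, so neither the overexpression nor the mutation was checked by signal. The probe set with the largest fall in scl3-1, unnamed here and singled out after its values were seen, read 1171, 1383 and 1128 in ga1-3 and 28.6, 8.48 and 30.6 in scl3-1. In SCL3OE it read 1241, 1344 and 1177, a change of 0.03 with a 95% interval of -0.66 to 0.73 (limma adjusted p = 0.943).

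The roots labelled SCL3OE differed from ga1-3 over much of the array, mostly by small amounts. Of 14117 kept probe sets, 6190 were called, which is 43.8%, with 2540 up (18%) and 3650 down (25.9%). The median size of a called change was 0.55 on the log2 scale, and 2589 of the called probe sets (41.8%) moved by less than 0.5. A called change of at least 2-fold was found for 771 probe sets (5.46%), 314 up (2.22%) and 457 down (3.24%), and one of at least 4-fold for 37 up and 54 down. At the other end, the 95% interval lay within 0.5 log2 units of no change for 5641 probe sets. One group's 3 arrays all lay above the other's for 7566 probe sets (53.6%). Of the 7621 genes that could be named, 3189 were called (41.8%), with 1178 up (15.5%) and 2011 down (26.4%), and 375 of the calls were at least 2-fold (4.92%). That 41.8% is the share to set beside every count of a gene list below. Without the SCL3OE arrays 213 of the 7621 genes would not have been kept, and without the ga1-3 arrays 140, with some genes in both counts. A gene in 1 count alone is said below to be kept only because of that group. The filter favours a difference in such a gene, but it need not be called. SWEET1 and ZIP9, kept only because of the SCL3OE arrays, were not called. A call is said below to hold in the refits if it was made in the same direction in each refit that tested the probe set, whether with another filter, scaling or model or without 1 array. Of the named genes, 5007 were tested in every refit. The 2-fold minimum is not one of these refits, and many calls named below are smaller than 2-fold. The median change of all kept probe sets was -0.07, so the share of calls that were rises depended on the scaling: it was 41.0% as deposited, 53.4% with median-centred arrays (3187 up, 2778 down) and 48.6% after quantile normalization (2650 up, 2804 down).

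**Figure D1:**
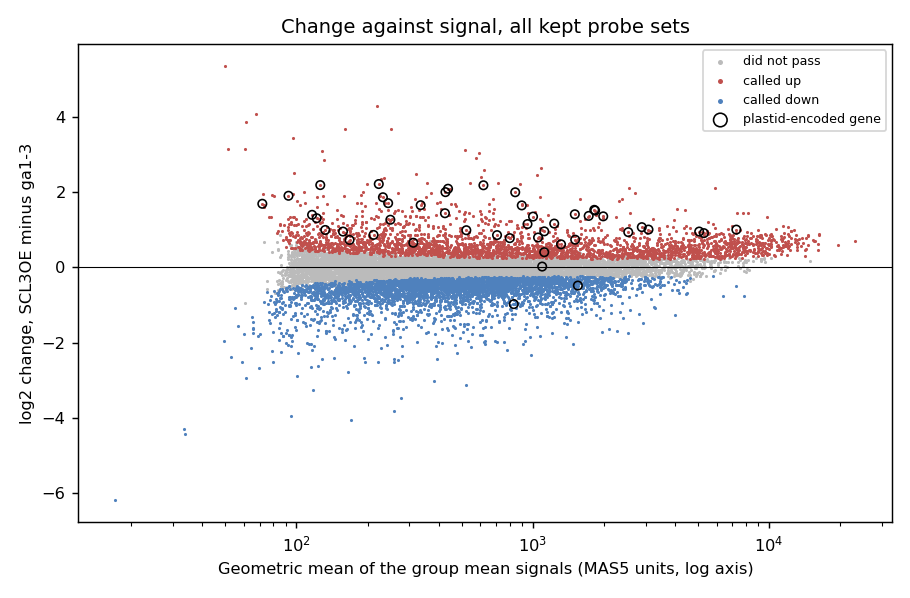
Log2 change (SCL3OE minus ga1-3) of all 14117 kept probe sets against the geometric mean of the group mean signals in MAS5 units on a log axis, with called rises in red, called falls in blue, the rest in grey and plastid-encoded genes circled. Of the 46 circled genes 43 rose, at a median of 1.16. At the bright end red points outnumber blue ones.

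The 20 genes with the largest rises included a coumarin hydroxylase, a pair of sugar transferases, a lipid head-group methyltransferase and 6 genes of the plastid genome. Only genes whose groups did not overlap could enter these 20 or the 20 largest falls, so their separation was set by that rule. AT3G12900 encodes scopoletin 8-hydroxylase, an enzyme that makes an iron-mobilising coumarin. Its signal was 12.6, 9.18 and 31.1 on the ga1-3 arrays and 230.1, 292 and 255 on the SCL3OE arrays, a change of 4.07 (SE 0.39, limma adjusted p = 1.22e-06). The groups lay far apart, but the ga1-3 values were close to the bottom of the scale. In bulk roots such a rise can come from more cells that use the gene or from more RNA per cell, which cannot be told apart for any gene here. UGT84A1 encodes a glucosyltransferase that makes hydroxycinnamate glucose esters, including sinapoylglucose. It went from 70.9, 60 and 14.6 to 308, 424 and 293 with no overlap (3.09, SE 0.42, limma adjusted p = 3.06e-05). MSRB6, which encodes a methionine sulfoxide reductase that repairs oxidised protein, gave 272, 185 and 164 in ga1-3 and 1537, 1977 and 1555 in SCL3OE (3.06, SE 0.17). AT2G22590, another sugar transferase gene of the UGT family, went from 57.2, 40.6 and 47.7 to 307, 416 and 333 (2.86, SE 0.24).

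Family names of loci that have no symbol are textbook annotation rather than part of the tables used. AT5G37690, of the GDSL lipase family, read 286, 389.8 and 307 in ga1-3 and 1472, 1657 and 1523 in SCL3OE (2.25, SE 0.12), with no overlap. AT1G73600 encodes a phosphoethanolamine methyltransferase, which makes the phosphocholine head group of membrane lipids. Its signal of 219.7, 195 and 144 in ga1-3 stood against 726, 850.4 and 621 in SCL3OE (1.99, SE 0.15). The acyltransferase gene AT1G78990 of the BAHD type, whose enzymes attach acyl groups to many secondary metabolites, changed by 2.00 (SE 0.23). The serine carboxypeptidase-like gene scpl31, kept only because of the SCL3OE arrays, changed by 2.22 (SE 0.19). The aldo-keto reductase gene AT5G62420 changed by 2.00 (SE 0.19) and the sugar transporter family gene AT4G04750 by 1.93 (SE 0.18). The 20 largest rises also held AT3G05170 (3.88), AT3G56290 (3.69), AT1G73120 (2.21) and AT5G08050 (2.08), for which no role is given here, and 6 plastid-encoded genes described below. The gene just outside the 20 was AT3G17130 at 1.89. Sizes of genes that were dim in ga1-3 depended on the floor: with an offset of 50 added before log2, the change was 2.20 for AT3G12900, 2.09 for AT3G05170, 2.97 for AT3G56290, 2.03 for UGT84A1, 2.02 for AT2G22590, 1.52 for cemA and 1.35 for AT5G62420.

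The 20 genes with the largest falls included a wall enzyme, a pair of peroxidases, a sucrose exporter, cold-regulated genes linked to the clock and ubiquitin ligases. XTH26 encodes a xyloglucan endotransglucosylase known from root hairs, and its signal of 436, 316 and 335 in ga1-3 stood against 34.6, 14.5 and 25.4 in SCL3OE (-3.94, SE 0.24, limma adjusted p = 1.6e-08). AT1G34510 encodes a class III peroxidase, a family of secreted enzymes that act on the wall, and it went from 1086, 942 and 881 to 79.2, 64.2 and 63.1 (-3.82, SE 0.13). Both were well separated, and the SCL3OE level of each lay below the filter level. SWEET11, a sucrose exporter known from phloem loading in leaves, read 988, 1212 and 1038 in ga1-3 and 113, 128 and 162 in SCL3OE (-3.02, SE 0.15, limma adjusted p = 2.01e-09). COR27 and its homologue AT4G33980 are cold-regulated genes that feed into the circadian clock. COR27 went from 276, 147 and 260.1 to 37.5, 52.6 and 46.9 (-2.28, SE 0.25) and AT4G33980 from 979, 758 and 692 to 195, 199 and 173 (-2.09, SE 0.14).

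Among the other large falls AT2G18690, for which no role is given here, was the brightest in ga1-3, with 2945, 3038 and 3060.4 in ga1-3 and 686, 733 and 772 in SCL3OE (-2.05, SE 0.09). ATL8 encodes a RING-H2 ubiquitin ligase and went from 1279, 1231 and 1273 to 328, 259 and 345 (-2.03, SE 0.15). The RING finger gene AT5G66070 changed by -1.98 (SE 0.14) and the calmodulin-like gene AT3G01830 by -2.20 (SE 0.25). The legume-type lectin gene AT3G16530 changed by -2.06, the class III peroxidase gene AT5G39580 by -2.05, the armadillo-repeat gene AT3G02840 by -2.08 and the Bet v 1 family gene AT1G70880 by -2.09. AT1G30760, a berberine-bridge-enzyme-like gene, changed by -2.40 and the lipid-transfer-like gene AT4G22610 by -1.98. AT1G19530 (-2.78), AT5G28630 (-2.29), AT5G19800 (-2.08), AT2G25735 (-2.0) and AT3G23080 (-2.0) complete the 20, and AT2G22880 lay just outside at -1.97. With an offset of 50 the change was -2.46 for XTH26, -3.10 for AT1G34510, -2.09 for AT1G19530, -1.75 for AT1G30760, -1.5 for COR27, -1.51 for AT3G01830 and -1.45 for AT1G70880. All 40 calls held in the refits, of which 33 were tested in every one, and 8 of the rises were on probe sets kept only because of the SCL3OE arrays.

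**Figure D2:**
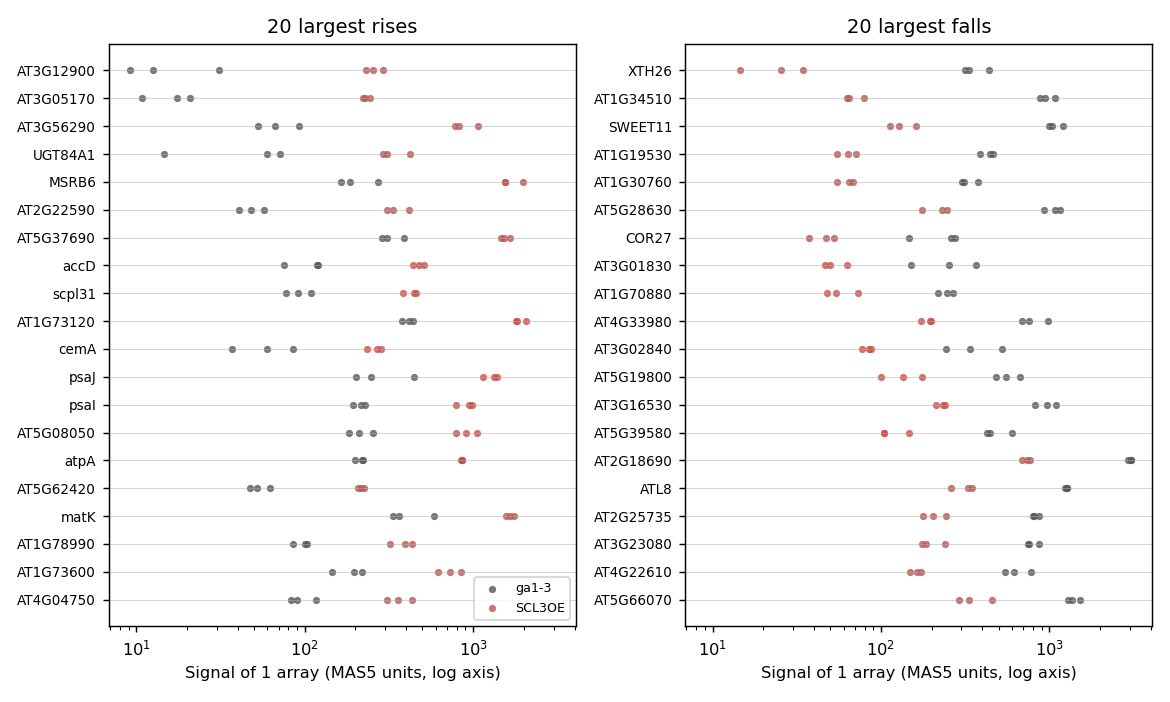
Signal of every ga1-3 array (grey) and SCL3OE array (red) in MAS5 units on a log axis for the 20 named genes with the largest rise (left) and the 20 with the largest fall (right). In no gene do the groups overlap, as the naming rule required, and AT3G12900, AT3G05170, UGT84A1 and XTH26 lie nearest the bottom of the scale in one group.

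Abundant transcripts were higher in SCL3OE as the arrays were scaled by their authors. Of the 100 brightest kept probe sets, 98 were called up and 0 down, at a median change of 0.64. PYK10, the main beta-glucosidase of root endoplasmic reticulum bodies, read 11311, 13057 and 11824 in ga1-3 and 19234, 23015 and 23144 in SCL3OE (0.85, SE 0.10, limma adjusted p = 1.2e-05). JAL34, a jacalin-related lectin, went from 9276, 10201 and 11411 to 15701, 18216 and 18571 (0.77, SE 0.11). The metallothionein gene MT1C went from 12229.9, 14084 and 10374 to 17715, 20648 and 20843 (0.70, SE 0.11). In all of them the groups were separate, and the same held for GAPC2, a cytosolic glyceraldehyde-3-phosphate dehydrogenase gene (0.98, SE 0.10), and the peroxidase gene PRXR1 (0.54, SE 0.09). These 5 were chosen after their values were seen, as the brightest with a symbol.

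This pattern depended on the scaling. After quantile normalization, which gives every array the same distribution of signals, 16 of the 100 were called up and 10 down at a median of 0.02, whereas median-centring left 98 up at 0.72. Under quantile normalization MT1C changed by 0.04 (limma adjusted p = 0.755), JAL34 by 0.10 (0.34) and PRXR1 by -0.10 (0.263), so none of these passed. In 5 equal bins of mean signal, from dim to bright, the share called up was 13.1%, 13%, 12.3%, 14.9% and 36.7%. The share called down was 21.0%, 27.6%, 32%, 31.5% and 17.2% in the same order. In the brightest bin the shares became 20.7% up and 20.4% down after quantile normalization. The 99th percentile of signal and the share taken by the 100 brightest probe sets, 6.54% to 7.64% in ga1-3 and 9.33% to 10.6% in SCL3OE, moved with this result, and their part in it was not tested.

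**Figure D3:**
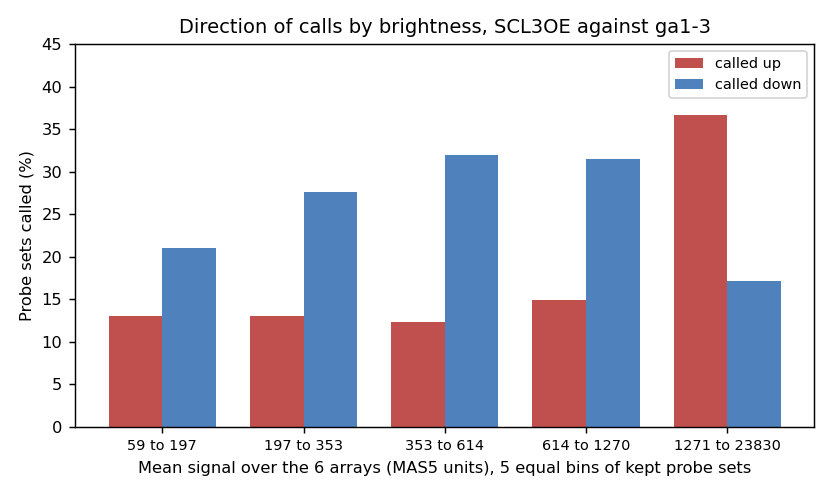
Percent of kept probe sets called up (red) and called down (blue) in each of 5 equal bins of mean signal over the 6 arrays, in MAS5 units as deposited. Falls outnumber rises in the 4 dimmer bins, and in the brightest 36.7% were called up against 17.2% called down.

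The bright genes with the largest changes went both ways. Among the brightest 5% of probe sets by mean signal, AT3G07720, a kelch-repeat gene, went from 1417, 1583 and 1692 to 3835, 4572 and 4460.3 (1.45, SE 0.11). GR1, a glutathione reductase gene that keeps glutathione reduced, went from 2313, 2742 and 2570.2 to 5810.2, 6450.4 and 6071 (1.27, SE 0.12). The strictosidine-synthase-like gene AT3G57020 read 4167, 4050.4 and 3408 in ga1-3 and 8178, 9153 and 8501 in SCL3OE (1.16, SE 0.11, and 0.74 after quantile normalization). AT5G57785, with no role given here, changed by 1.29 (SE 0.11). Against the direction of most bright probe sets, the lipid-transfer family gene AT5G01870 went from 3580.4, 4146 and 3753 to 1665, 1825 and 1711 (-1.14, SE 0.10). BCAT4, an aminotransferase that starts methionine chain elongation for glucosinolates, went from 4020.1, 5149 and 5207 to 2051, 2611 and 2089.7 (-1.09, SE 0.15). The jacalin-type lectin gene AT1G52070 fell by 0.69 (SE 0.08), the methionine sulfoxide reductase gene MSRB9 by 0.69 (SE 0.09) and AT4G32060, whose product is a calcium-binding regulator of mitochondrial calcium uptake, by 0.74 (SE 0.11) on the log2 scale.

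Signals of genes of the plastid genome were higher in SCL3OE almost throughout. The RNA was labelled with a 3' IVT kit, and how closely such signals follow the amount of plastid transcript was not tested. Of 46 tested plastid-encoded genes, a list chosen with the values in view, 43 went up and 2 went down, at a median of 1.16, where 41.8% of all named genes were called and their median was -0.09. The counts were the same after quantile normalization and median-centring, with medians of 1.23 and 1.24, and 40 of the 43 rises held in the refits, where 37 of the 46 genes were tested in every one. The probe sets of cemA, psbA, rpoC2, rps15 and ycf4 were kept only because of the SCL3OE arrays, where they were brighter, and of the other 41 genes 38 rose and 2 fell. Genes for the plastid's own gene expression rose where tested: 12 of 12 ribosomal protein genes (median 1.39) and 3 of 3 RNA polymerase genes (median 1.53). rpoA, a core subunit of the plastid-encoded polymerase, went from 1257, 852 and 1108 to 3711, 2729 and 2835 (1.53, SE 0.14, limma adjusted p = 7.34e-07). matK, the maturase thought to act in plastid intron splicing, read 589, 334 and 362 in ga1-3 and 1758, 1659 and 1563 in SCL3OE (2.00, SE 0.19). accD, a subunit gene of the plastid acetyl-CoA carboxylase that feeds fatty acid synthesis, went from 75.4, 118 and 120.2 to 514, 478 and 439 (2.22, SE 0.19). The envelope protein gene cemA changed by 2.19 (SE 0.25) and clpP, a protease subunit gene, by 1.36 (SE 0.24).

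Plastid genes for photosynthesis rose too, with an exception in a single operon. All 3 ATP synthase genes rose (median 1.01, and 0.60 after quantile normalization). So did 4 of 4 genes of the NDH complex (median 0.99) and 2 of 2 of the cytochrome b6f complex (median 1.19). The bright atpE went from 4609.9, 6283 and 4573 to 10207, 10597 and 9938 (1.01, SE 0.11), and rbcL, the large subunit of Rubisco, from 148, 158 and 176 to 427, 410.3 and 329 (1.27, SE 0.14). Of 14 photosystem genes 11 rose and 2 fell (median 0.82), with psaJ at 2.19 and psaI at 2.09 the highest. The 2 that fell encode the cytochrome b559 subunits of photosystem II. psbE went from 1161, 1252 and 1085 to 612, 590.4 and 575 (-0.97, SE 0.11, limma adjusted p = 7.7e-06) and psbF from 1720.5, 1986 and 1798 to 1352, 1330.4 and 1255 (-0.48, SE 0.09). In both the SCL3OE arrays lay below all ga1-3 arrays. psbE and psbF are transcribed together with psbL and psbJ. Of the other two, psbJ did not pass (0.02, SE 0.13, adjusted p = 0.893), and psbL changed by 0.66 (SE 0.20) but was no longer called without ga1-3 replicate 2 (limma adjusted p = 0.0712) or SCL3OE replicate 2 (0.0688). The fall of psbE and psbF was not tested against the other plastid genes as a difference.

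**Figure D4:**
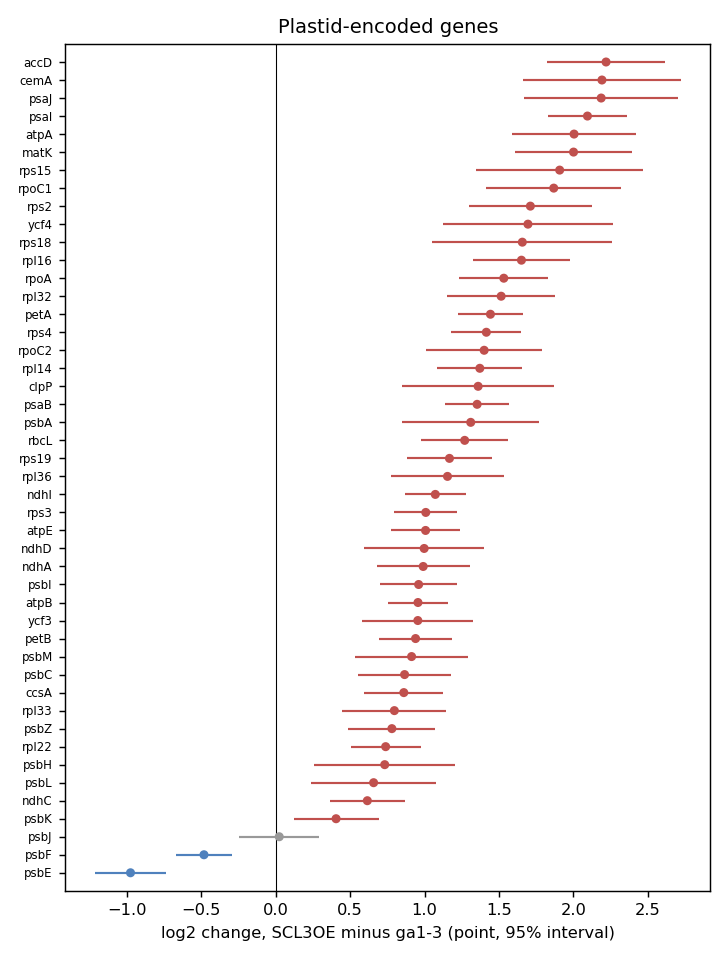
Log2 change (SCL3OE minus ga1-3) of the 46 tested plastid-encoded genes with its 95% interval, called rises in red, called falls in blue and the uncalled gene in grey. The genes run from accD at the top to psbF and psbE, whose intervals lie below 0.

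Nuclear genes for photosynthesis moved both ways. Of 7 tested genes in the list of shoot photosynthesis, 3 were called up and 2 down, at a median of 0.04. LHCB4.2 and LHCB4.1, which encode light-harvesting antenna proteins, had log2 changes of -0.74 (SE 0.11) and -0.51 (SE 0.12). The 3 rises were of at most 0.38, and the number called up was 1 without SCL3OE replicate 1, 1 without replicate 2 and 0 without replicate 3. Whether shoot tissue entered the samples was not tested beyond these genes. HYH, a bZIP factor that works beside HY5 in light signalling, was the single tested gene of its list and went from 224, 131 and 152 to 611, 689.9 and 475 (1.83, SE 0.18, limma adjusted p = 1.96e-06). CHIL, a chalcone-isomerase-like protein that helps flavonoid synthesis, went from 1717, 1268 and 856 to 4247, 4378 and 4062 (1.78, SE 0.17). UGT80B1, a sterol glucosyltransferase held by the flavonoid list for its seed-coat phenotype, fell by 0.51 (SE 0.13).

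Sugar transferases of the UGT family, taken by symbol after seeing the data, moved in both directions. Of 31 tested, 9 rose and 6 fell (48.4%), at a median of 0.05, and 9 of the rises and 4 of the falls held in the refits. The rises of UGT84A1, UGT84A3 and UGT78D1 were on probe sets kept only because of the SCL3OE arrays and the fall of UGT76C1 on one kept only because of ga1-3, and of the other 27 genes 6 rose and 5 fell. UGT78D1 and UGT78D2, which glycosylate flavonols and anthocyanins, both rose. UGT78D1 went from 53.7, 29.7 and 41.4 to 144, 137 and 106 (1.66, SE 0.26) and UGT78D2 from 934, 843 and 926 to 1530.3, 1765 and 1806 (0.91, SE 0.11). UGT84A3, a hydroxycinnamate glucosyltransferase like UGT84A1, changed by 1.12 (SE 0.22) and UGT72B3 by 1.5 (SE 0.16). In the other direction UGT74B1, which acts in glucosinolate synthesis, fell by 0.71 (SE 0.09), UGT71C5, an abscisic acid glucosyltransferase, by 0.73 (SE 0.11) and UGT71C2 by 0.69 (SE 0.11). Glutathione transferases of the tau class also split, with 4 of 9 up and 2 down (66.7%, against 41.8% of all named genes). The rise of GSTU18 was on a probe set kept only because of the SCL3OE arrays, and of the other 8 genes 3 rose and 2 fell. These enzymes join glutathione to toxic molecules. GSTU25 went from 3435, 3049 and 2606 to 6021, 6738 and 6125 (1.06, SE 0.10) and GSTU22 from 1592, 1711 and 1687 to 3262, 3709.6 and 3355 (1.05, SE 0.09), whereas GSTU28 fell by 0.65 (SE 0.09).

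Calcium sensor genes were lower in SCL3OE wherever they were called. Calmodulin-like proteins bind calcium released during stimuli such as touch and wounding. Of 7 tested, 5 fell and 0 rose (71.4%, against 41.8% of all named genes), the median was -0.53, and all 5 falls held in the refits, although the 60th percentile filter left AT1G76640 and CML37 untested. CML38 went from 1065, 711 and 766 to 267, 301 and 170.4 (-1.80, SE 0.20, limma adjusted p = 4.52e-06). AT1G76640, listed as CML39, went from 256, 94.5 and 147 to 86.1, 45.2 and 50.7 (-1.39, SE 0.34) and CML37 from 162, 82.3 and 146 to 59.0, 40 and 58.7 (-1.27, SE 0.25). The SCL3OE arrays lay below the ga1-3 arrays in these 3 genes. CML42, known from trichome branching and herbivore responses, and CML43 each changed by -0.53 (SE 0.14 and 0.14). Of 7 tested WRKY factors, 3 fell and 0 rose (42.9%), and 2 of the falls held in the refits. WRKY53, a regulator of senescence and defence, went from 292, 188 and 237 to 51.5, 99.4 and 74.1 (-1.70, SE 0.22), and WRKY47 fell by 0.57 (SE 0.11).

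Among hormone and clock genes, 5 of 7 tested genes of gibberellin perception and DELLA turnover fell and 0 rose. That is 71.4%, against 41.8% of all named genes. Of these falls 4 held in the refits, and that of SPY (-0.38, SE 0.13) did not. SLY2, a homologue of the F-box gene SLY1, went from 176, 142 and 140.4 to 47.5, 77.3 and 67.6 (-1.27, SE 0.20), the receptor gene GID1B from 1007, 1207 and 1226 to 710.3, 753 and 694 (-0.67, SE 0.11) and GID1A from 967, 1011 and 908 to 695, 611 and 585 (-0.61, SE 0.11). The third receptor gene, GID1C, read 166, 154 and 162 in ga1-3 and 159.9, 126 and 192 in SCL3OE, overlapping ranges (-0.03, 95% interval -0.40 to 0.33). GI, a clock gene that couples the clock to flowering and growth, went from 641, 579 and 579 to 238, 311 and 259 (-1.16, SE 0.16), while TIC, another clock gene, did not pass (-0.10, SE 0.15). RTE1, which acts with the ethylene receptor ETR1, went from 498, 584 and 493 to 256, 262 and 280.4 (-0.98, SE 0.11), and EIN3, the main transcription factor of ethylene signalling, did not pass (-0.18, 95% interval -0.49 to 0.12), though it did without ga1-3 replicate 1 (-0.40, limma adjusted p = 0.00423). Of 5 auxin genes, GH3.3, which conjugates the hormone to amino acids, rose by 0.83 (SE 0.15). The Aux/IAA repressor genes IAA31 and IAA18 had log2 changes of -0.93 (SE 0.21, on a probe set kept only because of the ga1-3 arrays) and -0.63 (SE 0.15).

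Few genes that mark or pattern the cell layers of the root were tested. Of the ground tissue list 3 were, and they fell, but AT5G41920 was kept only because of the ga1-3 arrays, where it was brighter. JKD, a zinc finger factor that helps keep SHR and SCR to their layers, went from 154, 179 and 175 to 83.5, 54.1 and 82.0 (-1.23, SE 0.18). The GRAS gene AT5G41920, listed as SCL23, went from 112, 125 and 131 to 74.8, 85.8 and 71.4 (-0.67, SE 0.17). SCL21, a member of the list for which no role in the ground tissue is given here, went from 280.3, 306 and 281 to 229.5, 201 and 205 (-0.45, SE 0.12). Of the root hair list all 4 tested genes fell, and 3 of the falls held in the refits: XTH26, the expansin gene EXPA18 (-0.91, SE 0.09) and SCN1, which restricts the site of hair growth (-0.41, SE 0.08). With so few tested genes, a change in the number of cells of a layer was not tested. GSO1, a receptor kinase gene of Casparian strip formation in the endodermis, was the single tested gene of its list and did not pass (0.31, SE 0.15, limma adjusted p = 0.0958). It passed after quantile normalization (0.44, limma adjusted p = 0.032) and with median-centred arrays (0.39). The lists for xylem, phloem and root cap had 0 tested genes.

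Nutrient and ion transport genes changed singly rather than by whole lists. Of 7 tested genes in the nitrate list, 3 rose and 0 fell (42.9%, close to the share of all named genes), and all 3 are transporter genes of the NPF family. One of them, AT1G68570, was kept only because of the SCL3OE arrays. AT1G68570, listed as NPF3.1, went from 51.5, 73.3 and 86.1 to 117, 144 and 113 (0.85, SE 0.24), AT3G21670, listed as NPF6.4, changed by 0.75 (SE 0.14) and AT2G26690, listed as NPF6.2, by 0.61 (SE 0.14). The glucosinolate transporters of the same family, GTR1 and GTR2, did not pass, with 95% intervals of -0.23 to 0.22 and -0.40 to 0.14. In sulfate assimilation APS4 and APS3, both genes for ATP sulfurylase, went opposite ways. APS4 went from 3472, 4019 and 3599 to 6058, 6435 and 6374 (0.77, SE 0.11) and APS3 from 377, 399 and 421 to 289, 281 and 307 (-0.45, SE 0.10). After quantile normalization the changes were 0.46 for APS4 and -0.32 for APS3. OASA2, a cysteine synthase family gene, went from 397, 377 and 475 to 175, 179.8 and 179 (-1.22, SE 0.15).

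The tonoplast proton pump subunits VHA-A3 and VHA-A2 both rose. VHA-A3 went from 1934, 1787 and 2064 to 3388, 3423 and 4090.2 (0.91, SE 0.10) and VHA-A2 from 688, 703 and 624 to 1062, 1046 and 1056 (0.65, SE 0.10). VHA-A1, the subunit of the same kind in the trans-Golgi network, lay at the threshold (0.26, SE 0.10, limma adjusted p = 0.0544). It passed with median-centred arrays (0.34), after quantile normalization (0.39), with array weights (0.30), under the 60th percentile filter (0.26), and without ga1-3 replicate 1 (0.30), ga1-3 replicate 3 (0.32) or scl3-1 replicate 1 (0.26). Beside SWEET11, the sugar transporter gene SWEET3 fell from 147, 119 and 138 to 53.8, 50.5 and 74.7 (-1.19, SE 0.20), and the other 5 tested genes of that list had changes between -0.43 and 0.53. Among bHLH factors linked to iron, BHLH101, which is induced by iron shortage, went from 78.0, 101 and 59.4 to 221, 228 and 185 (1.44, SE 0.23), and bHLH121, an upstream activator of that response, from 573, 614 and 554 to 310.4, 289 and 395 (-0.82, SE 0.13). PYE, another bHLH gene of the iron response, did not pass (0.13, SE 0.12), nor did bHLH104 (-0.11, SE 0.13) or bHLH115 (0.11, SE 0.09). Their relatives bHLH34 (0.46, SE 0.15) and ILR3 (-0.34, SE 0.10) were called in opposite directions. The call of bHLH34 ended without ga1-3 replicate 2 (limma adjusted p = 0.0548) or SCL3OE replicate 3 (0.0786) and that of ILR3 without SCL3OE replicate 2 (0.0585). The probe set of BHLH101 was kept only because of the SCL3OE arrays.

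The wall synthesis and cytoskeleton lists held few calls, and the redox list held rises and falls. Of 9 tested genes for cellulose and hemicellulose, 2 rose and 1 fell (33.3%). CSLC5, of a glucan synthase family for xyloglucan, rose by 0.66 (SE 0.14) and COB, needed for oriented cellulose deposition, by 0.47 (SE 0.08). CSLC04, of the same family as CSLC5, changed by -0.34 (SE 0.13), a call that did not hold in the refits. The list median was 0.09. The xylan synthase gene GUT2 (0.08, SE 0.14) and CSLD2 (-0.05, SE 0.09) were not called. Of 11 cytoskeleton genes 3 rose and 0 fell (27.3%). KINESIN-13A rose by 0.38 (SE 0.09), a call that held in the refits. The calls of TUB7 (0.25) and TUA6 (0.25) did not hold, and TUA6 turned to -0.17 after quantile normalization. TUB1, TUB5, TUB6, TUB9 and ACT11 were not called, with changes from -0.17 to 0.14. Other uncalled members reached -0.30 and, for KINESIN-12B, kept only because of the SCL3OE arrays, 0.30. The antioxidant list had 8 rises and 4 falls among 21 tested genes (57.1%), and 4 rises after quantile normalization. Besides MSRB6 and GR1, these included TRXF2, a plastid thioredoxin gene, which went from 145, 105 and 91.8 to 175, 176 and 171 (0.64, SE 0.17). Within the methionine sulfoxide reductases MSRB6 rose, MSRB9 and MSRA5 fell (-0.69 and -0.45), and MSRB5 and MSRB3 were not called (-0.06 and -0.21). MSRB5 passed after quantile normalization (-0.23) and MSRB3 without ga1-3 replicate 3 (-0.36). Among defensin genes LCR68 went from 5359.8, 5712 and 6403 to 10895, 12006 and 10661 (0.94, SE 0.09, and 0.41 after quantile normalization). LCR69 changed by 0.57 (SE 0.11) as deposited and by -0.05 after quantile normalization.

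Genes for membrane traffic, and separately the tetraspanin and serine carboxypeptidase-like genes, were described by symbol family. The families were picked after seeing the data from 14 with at least 8 tested genes. In those of the 14 that are not described here, the share called ran from 8.33% (UBP) to 50% (TRM). In the family with SEC symbols, 0 of 9 tested genes were called, at a median of -0.04, so the falls below do not describe membrane traffic as a whole. PRA1 proteins receive prenylated Rab GTPases on membranes. Of 9 tested, 8 fell and 0 rose at a median of -0.32, by small amounts. PRA1.G2 went from 159, 151 and 148 to 91.8, 120.5 and 99.4 (-0.57, SE 0.16), PRA1.B4 from 1519, 1458 and 1265 to 967, 865 and 1108 (-0.53, SE 0.11) and PRA8 from 2509, 2607 and 2813 to 1889, 1941 and 1909.8 (-0.46, SE 0.09), and these 3 calls held in the refits. The count of 8 was 3 after quantile normalization, 3 with median-centred arrays, 3 without SCL3OE replicate 1, 4 without SCL3OE replicate 2 and 4 without ga1-3 replicate 3. VPS genes encode parts of the machinery that sorts cargo into multivesicular bodies. Of 8 tested, 4 fell and 0 rose (50%, against 41.8% of all named genes), with VPS60.1 at -0.58 (SE 0.09) and VPS46.2 at -0.42 (SE 0.09). Of 8 tetraspanin genes 5 fell and 0 rose (62.5%), the furthest TET12 (-0.76, SE 0.20) and TET5 (-0.65, SE 0.11). Of 16 serine carboxypeptidase-like genes 6 fell and 1 rose (43.8%, close to the share of all named genes), with scpl25 at -1.10 (SE 0.13) opposite to scpl31. The probe set of scpl31 was kept only because of the SCL3OE arrays, and of the other 15 genes 0 rose and 6 fell.

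**Figure D5:**
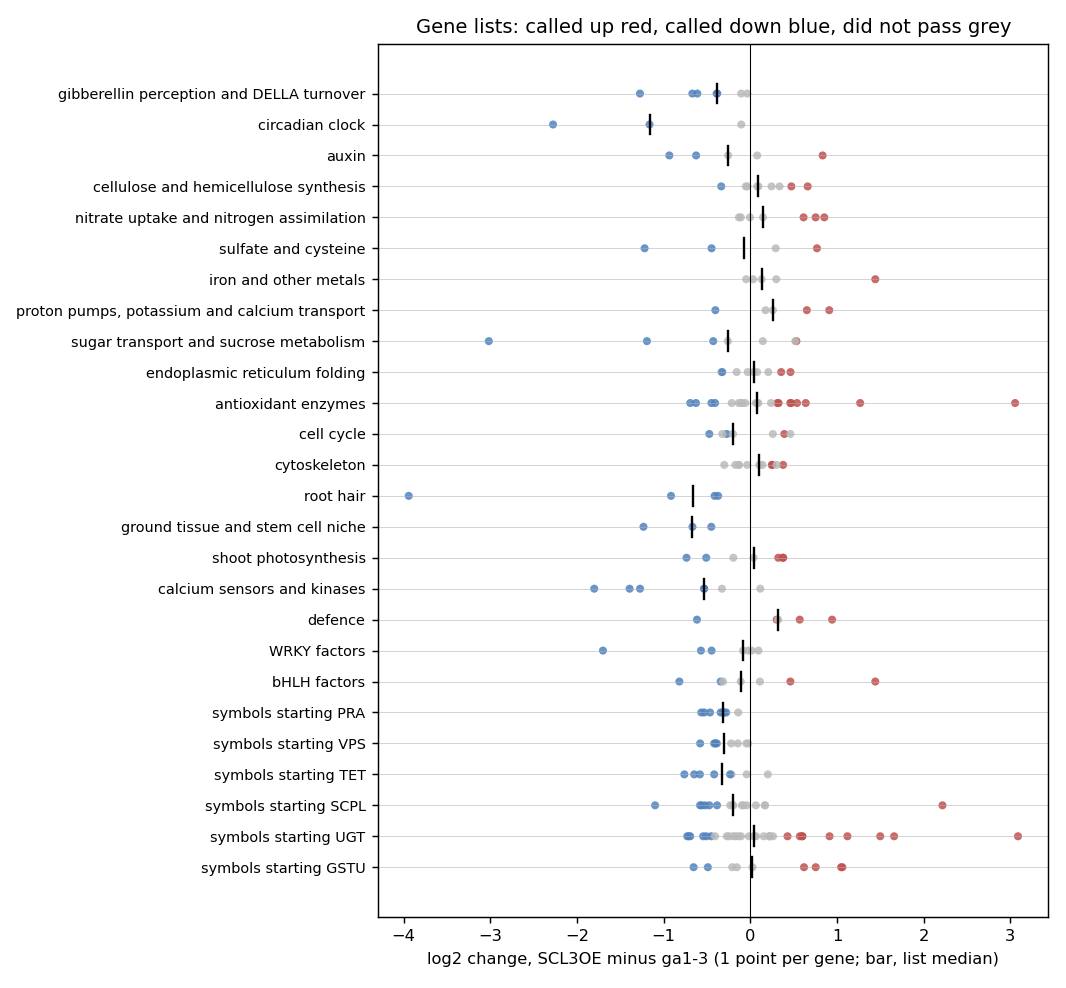
Log2 change (SCL3OE minus ga1-3) of each tested gene in the lists with at least 3 tested genes and in 6 symbol families, 1 point per gene and a bar at the list median, with called rises in red, called falls in blue and the rest in grey. All called members are blue in the calcium sensor, root hair and ground tissue lists. The same holds for the gibberellin perception, clock, WRKY, PRA1, VPS and tetraspanin genes. The antioxidant, proton pump and sugar transport lists hold called rises and falls. The nitrate list holds 3 called rises among 7 genes and the iron list 1 among 5, BHLH101, with 0 called falls in either. The probe sets of BHLH101 and of the nitrate list gene AT1G68570 were kept only because of the SCL3OE arrays.

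Many genes were measured well enough to bound their change. The 95% interval lay within 0.5 log2 units of no change for 3045 of the named genes, some of them called. The 10 with the narrowest bounds, all brighter than the mean array median of 192.8, stayed within 0.19. AT1G67330 read 4067, 3978 and 3828 in ga1-3 and 3877, 3870.5 and 4035 in SCL3OE, with an interval of -0.19 to 0.17. AT3G15090 read 908, 829 and 900.0 and 872, 863 and 902, with an interval of -0.19 to 0.19. AT3G27770, AT1G16350, AT1G10590, AT5G18310, AT5G41970, AT1G29850, AT2G31810 and AT1G16740 were the others. Of these, AT1G10590 changed by -0.24 after quantile normalization (limma adjusted p = 0.0252), so its bound holds for the deposited scaling.

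Calls were spread over the nuclear chromosomes, with 41.6%, 43.2%, 41.4%, 40.1% and 41.2% of named genes called on chromosomes 1 to 5. For 52 genes more than 1 kept probe set named the gene, which allows a check within the arrays. In 18 of them all probe sets were called the same way, in 23 some were called, in 11 none was, and in 0 were probe sets called in opposite directions. The sign was the same for 40 of the 52 (76.9%).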

How the data were processed

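Total RNA (300 ng per sample, per the labels) from whole roots was biotin-labelled with a 3' IVT kit and hybridised to Affymetrix ATH1 arrays, 1 array per sample. The deposited values are MAS5 signal intensities on a linear scale, made with Affymetrix Expression Console 1.1 per the submitters' processing notes. The 2% trimmed mean was 496 to 497 on all 9 arrays, which is a common scaling. No spot-level values or detection calls were used here, so the number of arrays limits the precision. No rescaling was added before the log2 step, and 14117 of 22746 probe sets passed the 40th percentile filter. A group could carry a probe set through that filter alone. With limma 3.58.1 under R 4.3.3, 3 group means were estimated from 9 arrays (eBayes with trend, two-sided, Benjamini-Hochberg over all kept probe sets; 6 residual degrees of freedom and 9.37 prior). The fit was tested on simulated data.

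The platform annotation gave 1 gene for 13513 probe sets, several for 503 and none used here for 8730. Symbols were updated through a RefSeq gene table of TAIR10.1, which matched 13436. A gene with several probe sets was given by the brightest. Named genes were the 20 largest called rises and 20 largest called falls among genes with separate groups and a brighter mean above 192.8, the called members of lists (4 furthest, or all in lists of at most 6), the 5 furthest each way in the brightest 5%, and the 10 with the narrowest bounds. Others were added after their values were seen. There were 46 lists, of which 33 had a tested gene and 13 none, with 158 tested genes, 87 of them called (38 up, 49 down) at a median change of -0.03. After symbols were matched, 11 false matches were removed by identity. The members of this comparison and the lists were chosen with earlier results of these data known. No sequence is shown.

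Alternatives were no dim filter, a 60th percentile filter, an offset of 50, median-centred arrays, quantile normalization, eBayes without trend, a replicate block, only the 6 arrays compared, array weights, a 2-fold minimum, and each array left out. Leaving out plastid-encoded genes was added after seeing the data.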

Additional observations from a re-analysis of the deposited data

How the results depend on the processing

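Called probe sets numbered 6190, and every alternative but the 2-fold minimum (771) kept that count within 1.5 times. It was 6162 with no dim filter, 4811 under the 60th percentile filter (9725 tested), 5454 after quantile normalization, 5965 with median-centred arrays, 6219 with an offset of 50, 6030 by eBayes without trend, 6148 with only the 6 arrays compared, 6627 with array weights and 6145 without plastid-encoded genes. Leaving out 1 array gave 4928 (without SCL3OE replicate 2) to 6426 calls, 1964 to 2651 of them up and 2964 to 3775 down. The 2-fold count of 771 was 1281 with no dim filter, 508 with the offset and 708 to 826 without 1 array. The 100 brightest probe sets had 98 rises, 93 to 99 without 1 array, and 16 after quantile normalization. Plastid-encoded rises numbered 37 to 43 without 1 array. Bounded probe sets (5641) numbered 4470 to 5811 and called list genes (87) 68 to 89. Replicate numbers gave no pairing by the rule used: deviations of same-numbered ga1-3 and SCL3OE arrays correlated at 0.18, -0.04 and 0.09, and not every array correlated best with its own number. With a replicate block 6175 probe sets were called. Of the 147 genes named by rule, 119 were called and 94 of these held in each refit that tested them (72 were tested in every refit, and 59 changed at least 2-fold), while 25 lost the call in at least 1. Signs turned after quantile normalization for TUA6 (-0.17), LCR69 (-0.046), AT1G10590 (-0.24), PRXR1 (-0.10) and AT5G64120 (-0.14), and the cause was not tested. The iron list's median turned to -0.048 under the 60th percentile filter, where fewer of its genes were tested. List medians near 0 turned too, among them the antioxidant median after quantile normalization (0.08 to -0.08), the shoot photosynthesis median without ga1-3 replicate 3 (0.04 to -0.03) or SCL3OE replicate 3 (-0.06), the UGT median without ga1-3 replicate 1 (0.05 to -0.02) and the WRKY median without ga1-3 replicate 2 (-0.08 to 0.02). Dim signals limit the sizes of the largest changes.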
